A study of Homo sapiens with 26 samples.

Results

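The genes of DNA replication and of entry into S phase were followed in A549 cells over 72 h of treatment with TGF-beta 1. The group holds 43 gene symbols, chosen by name: the proteins that license, open and copy DNA, the enzymes that supply its building blocks, and the cyclins and E2F factors that govern the step from G1 to S phase. Of these, 42 matched a gene of the deposited annotation, out of 19539 genes in all. Each was represented by the probe set with the highest mean over the 26 arrays, avoiding those ending in _x_at where another existed. The 43rd, PRIM2, had no probe set under that symbol, because the annotation names the gene PRIM2A, and it was not counted. CDC45L, ORC1L and ORC6L are the annotation's older names of CDC45, ORC1 and ORC6.

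A549 is an established human lung adenocarcinoma line, obtained by the submitters from a cell repository and kept in medium with serum. All groups were cells deprived of serum for 24 h. The untreated group was harvested without TGF-beta, and the others after 0.5, 1 or 2 h, after 4, 8 or 16 h, or after 24 or 72 h with 5 ng/mL of porcine TGF-beta 1, a cytokine that arrests many epithelial cells in G1. The time course was run in 3 experiments, giving 3 arrays in every group except 2 h, which has 2. No untreated cells were harvested at the later times, so the effect of TGF-beta and that of time in culture cannot be told apart. The cells were measured whole, so fewer cells in S phase and less RNA per cell cannot be told apart either.

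Before S phase the origin recognition complex, CDC6 and CDT1 load the MCM2-7 ring onto DNA. CDC45 and the GINS complex turn that ring into a working helicase, and polymerases tethered by the PCNA clamp copy the opened strands. Many of these genes are known targets of E2F factors, which are released when cyclin-dependent kinases phosphorylate the retinoblastoma protein, and TGF-beta is known in epithelial cells for opposing that step.

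E2F factors bind 8-base sites close to gene starts, so the upstream sequences of the group were searched for TTTCCCGC, TTTGGCGC, TTTCGCGC and TTTGCCGC on both strands, overlaps allowed. RefSeq windows of 300 bases on GRCh38.p14 (250 before and 50 after a start) were at hand for 37 of the 42 genes. The entries for MCM4, MCM5, CCNE2, E2F8 and RPA2 were missing. At least 1 site lay in a window of 20 of the 37 genes (54.1%), against 1090 of 27305 genes in the whole table (3.99%). Counted by window, since some genes have several starts, the shares were 44.7% of 47 and 3.31% of 35116. The letters CCAAT, a site of the NF-Y factor, lay in a window of 56.8% of the 37 genes and 39.7% of all genes, and TTTGAA, a CHR element of G2/M promoters, in 2.7% and 18.2%. A match of letters is a description and does not show binding. The 150 bases before the start are shown for 6 genes whose fall is described below and which carry a match there, and for TK1, which fell and has none. The E2F-type letters are in capitals, and every sequence runs 5′ to 3′ on the gene's strand.
MCM6: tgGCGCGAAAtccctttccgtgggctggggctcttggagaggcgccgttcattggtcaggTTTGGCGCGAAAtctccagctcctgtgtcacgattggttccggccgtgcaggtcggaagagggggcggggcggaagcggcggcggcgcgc
GINS2: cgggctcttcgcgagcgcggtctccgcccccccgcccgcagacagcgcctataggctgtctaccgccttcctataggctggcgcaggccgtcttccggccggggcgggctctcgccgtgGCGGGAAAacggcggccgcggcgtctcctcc
PCNA: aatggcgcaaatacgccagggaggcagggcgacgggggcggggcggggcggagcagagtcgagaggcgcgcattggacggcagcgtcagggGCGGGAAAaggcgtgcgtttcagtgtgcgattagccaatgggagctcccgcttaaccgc
RFC3: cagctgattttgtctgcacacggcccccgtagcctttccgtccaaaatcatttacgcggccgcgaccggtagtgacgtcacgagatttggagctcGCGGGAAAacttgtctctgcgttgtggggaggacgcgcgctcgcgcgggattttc
E2F1: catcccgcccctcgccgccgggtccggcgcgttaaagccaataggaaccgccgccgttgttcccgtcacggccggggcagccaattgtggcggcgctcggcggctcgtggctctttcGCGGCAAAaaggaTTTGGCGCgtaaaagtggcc
DTL: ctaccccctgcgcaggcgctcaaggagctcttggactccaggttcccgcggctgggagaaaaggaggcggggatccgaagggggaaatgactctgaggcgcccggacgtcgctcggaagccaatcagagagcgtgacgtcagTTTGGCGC
TK1: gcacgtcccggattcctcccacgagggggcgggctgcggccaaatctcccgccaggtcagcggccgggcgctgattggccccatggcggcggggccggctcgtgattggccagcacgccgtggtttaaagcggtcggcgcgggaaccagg

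These stretches lie at chr2:135876444-135876593 (MCM6, minus strand), chr16:85688955-85689104 (GINS2, minus), chr20:5126623-5126772 (PCNA, minus) and chr13:33817999-33818148 (RFC3, plus). Those of E2F1, DTL and TK1 lie at chr20:33686386-33686535 (minus), chr1:212035598-212035747 (plus) and chr17:78187053-78187202 (minus). PCNA and TK1 have a second start in the table, which is not shown. The longer capitals of MCM6 are 2 overlapping sites on opposite strands, 90 and 86 bases before the start. In GINS2 the site begins 31 bases before the start, in PCNA 59, in RFC3 55 and in DTL 8. GINS3, the member that behaves differently below, has a site that begins 5 bases before its start and runs across it.

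The values are log2 levels on a scale where a probe set with no signal sits at 6.64. Because of the offset inside the logarithm, a fold change understates the change of a dim gene. Between 28834 and 32875 of the 54675 probe sets were called detected on an array by the authors, and the actin 3' to 5' ratio ran from 0.975 to 1.16. Of 7 genes known to respond to TGF-beta, 6 passed the filter on dim genes, and all 6 were higher at 4 h and at every later time. The A549 markers KRT8, KRT18, ALDH1A1, AKR1B10 and AKR1C1 had group means of 13.61 or more at every time, whereas KRT19 stayed between 6.18 and 7.03, near no signal. The leukocyte genes PTPRC and CD14 stayed between 6.72 and 7.43. Of 6 leukocyte markers 4 were tested, and LYZ, which encodes lysozyme, was lower late: its log2 level of 9.16 ± 1.19 before treatment compared with 7.47 ± 0.15 at 24 h and 6.08 ± 0.66 at 72 h (SD, n = 3). The changes were -1.68 ± 0.45 (SE, adjusted p = 0.0049) and -3.07 ± 0.45 (adjusted p = 8.1e-06). Of 6 endothelial markers 3 were tested, and TEK was lower at 2 h, 4 h and 24 h, at 24 h by -0.70 ± 0.23 (SE, adjusted p = 0.023). The part of either gene in the results was not tested. LUM, a fibroblast gene, rose from 6.91 ± 0.26 (SD, n = 3) in untreated cells to 9.53 ± 0.12 (n = 3) at 72 h, while none of the other 3 fibroblast markers tested was called there; its part in the 72 h values was not tested. Of the 7 A549 epithelial markers tested, 4 were lower at 16 h and at 24 h and 7 at 72 h, beside the lower levels of the replication genes, and their part was not tested. The largest of these falls at 16 h was that of CDH1, the epithelial cadherin (-2.17 ± 0.17 SE, adjusted p = 1.8e-09).

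The untreated arrays stood apart from one another for these genes. Averaged over the 42 genes, their levels were 11.33 in experiment 1, 10.01 in experiment 2 and 10.46 in experiment 3. The untreated array of experiment 1 was the highest of the 3 for 42 of 42 genes, and that of experiment 2 the lowest for 37. The median SD of a gene between the untreated arrays was 0.67 for the 42 genes and 0.20 for all 14771 genes tested. PCNA was the steadiest, at 14.05, 13.83 and 13.97 (SD 0.12), and ORC1L the least steady, at 9.75, 7.34 and 8.25 (SD 1.22). The array of experiment 3 was the lowest of its group for 39 of the genes at 0.5 h, 37 at 1 h and 35 at 4 h. At 8 h the spread had closed, with array means of 9.57, 9.53 and 9.52. The spread limits every comparison with untreated cells, and counts without single untreated arrays are therefore given beside the main ones.

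**Figure D1:**
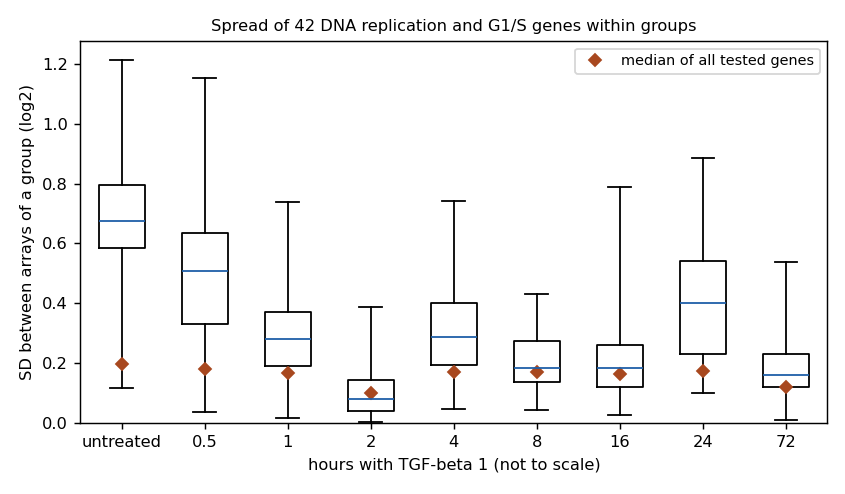
Standard deviation (log2) between the arrays of each group for the 42 genes: boxes span the middle of the genes with the median as a line, whiskers reach the lowest and highest gene, and diamonds mark the median of all tested genes. The median of the 42 genes was 0.67 in untreated cells and 0.18 at 16 h, against 0.20 and 0.16 for all tested genes.

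Of the 42 replication and G1/S genes, 40 were lower after 16 h of TGF-beta 1 than in untreated cells. From 16 h to 72 h, a step added after the values had been seen, 17 rose. Among these 17 is GINS3, which was not called lower at 16 h. The count of 17 was 3 without experiment 1 and 3 without experiment 2. Over the time course 36 of the 42 genes (85.7%) varied (moderated F test in limma, adjusted p under 0.05), against 47.7% of all genes tested. All 42 passed the filter on dim genes. The 6 that did not vary by this test were CDT1, CHAF1A, CHAF1B, POLD1, PRIM1 and UHRF1, with adjusted p from 0.066 to 0.30. The mean level over the 42 genes was 10.60 in untreated cells, 10.24 after 0.5 h, 10.36 after 1 h and 10.57 after 2 h. It stood at 10.16 after 4 h and 9.54 after 8 h, reached 9.20 after 16 h, and was 9.68 and then 9.87 after 24 h and 72 h. The 3 arrays at 16 h, with means of 9.28, 9.20 and 9.11, were the lowest of each experiment.

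**Figure D2:**
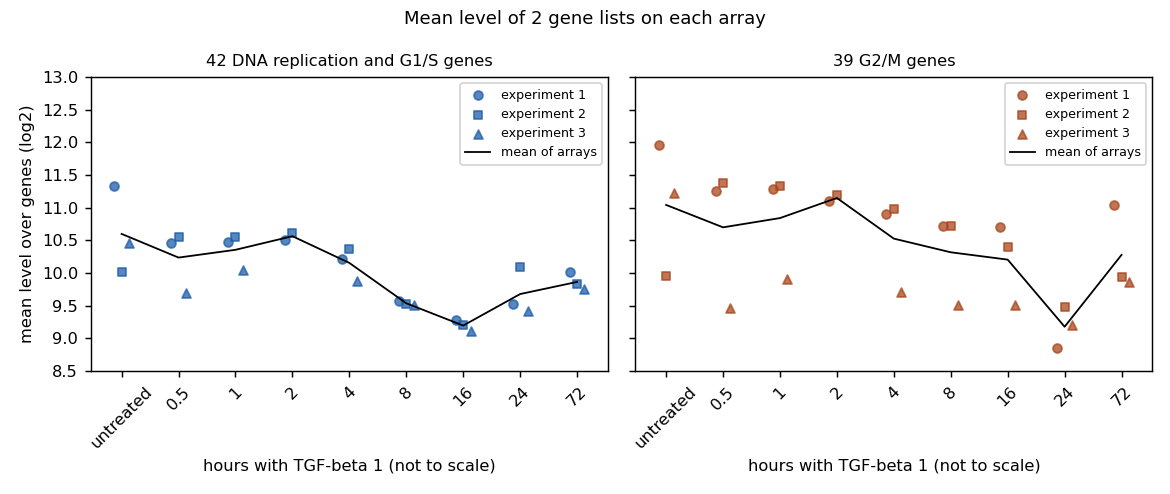
Mean log2 level over the 42 replication and G1/S genes (left) and over 39 G2/M genes (right) on each array, against hours with TGF-beta 1 on an axis not to scale, with the experiment as the marker and the mean of the arrays as the line. The replication genes were lowest at 16 h, at a mean of 9.20, and the G2/M genes at 24 h, at 9.18.

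Up to 4 h few genes passed the test. At 0.5 h and 1 h none of the 42 was called against untreated cells, where 0.135% and 0.542% of all genes tested were, and at 2 h none was called against 3.11%. At an unadjusted p under 0.05, 2, 0 and 1 of them passed at these times. The 2 at 0.5 h, LIG1 and MCM6, were lower, but the 1 at 2 h, CCNE1, was higher (0.54 ± 0.21 SE). The group means were nonetheless below those of untreated cells for 42 of the 42 genes at 0.5 h (median change -0.37) and 40 at 1 h (median -0.25), and for 25 at 2 h (median -0.05). Of all genes tested, 48.4%, 50.9% and 51.7% were below at these times, and 52.7% at 4 h. At 4 h all 42 were again below, with a median change of -0.43, and 1 was called, POLA1, the catalytic subunit of the polymerase that makes the primers (-0.52 ± 0.16 SE, adjusted p = 0.049); 3.08% of all genes were called lower. That call was lost without untreated array 1 or 3, and without untreated array 2 the count was 6. It changed in 18 of the 26 fits that left out 1 array. Within experiment 1, 42, 42 and 42 of the genes were below that experiment's untreated array at 0.5, 1 and 4 h. In experiment 3 it was 41, 37 and 40, but in experiment 2 only 2, 4 and 10. With untreated arrays 2 and 3 exchanged, a doubt about the labels described below, it was 15, 15 and 25 in experiment 2 and 36, 21 and 32 in experiment 3.

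At 8 h, 32 of the 42 genes were lower than in untreated cells, against 11.6% of all genes, and none was higher; every 8 h array lay below every untreated array in 27 of the 42, against 16.7% of all genes. At 16 h, 40 were lower, against 18.5%, and the median change was -1.34, which is 2.53-fold, against -0.04 for all genes tested. In 37 of the 42 genes every 16 h array lay below every untreated array, as did 22.1% of all genes. All comparisons with untreated cells share the same 3 arrays. Without untreated array 1 the counts were 16 at 8 h and 30 at 16 h, without array 2 they were 40 and 40, and without array 3 they were 28 and 39. Within experiment 1, 42 of 42 genes were lower at 16 h than in that experiment's untreated array, with a median difference of -2.01. In experiment 2 it was 39 of 42, at -0.76, and in experiment 3, 41 of 42, at -1.28. Untreated array 2 deviated from its group with the treated arrays of experiment 3 (median r across genes 0.314) rather than with those of its own (-0.198). Untreated array 3 went with neither (0.031 with those of experiment 2 and -0.022 with those of its own). By correlation, the doubt about the labels therefore rests on array 2. The numbered names of the deposited columns concern both arrays. In their order, untreated array 3 comes directly before the treated arrays of experiment 2, and untreated array 2 directly before those of experiment 3. Untreated array 1 likewise comes before those of experiment 1. Whether the labels were exchanged was not tested. With untreated arrays 2 and 3 exchanged, 41 of 42 genes were lower at 16 h in each of the experiments 2 and 3, at -1.33 and -0.85. The actin 3' to 5' ratio moved too, from 1.07 to 1.13 on the untreated arrays to between 0.995 and 1.04 at 16 h, and its part in the result was not tested.

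Measured against cells treated for 1 h, 35 of the 42 genes were lower at 16 h, against 15.6% of all genes, with a median change of -1.15. This comparison was added after the values had been seen. Its differences use no untreated array, but its error does, through the spread shared by all groups: without untreated array 1 the count was 38. Without all arrays of experiment 2 it was 18, and without those of experiment 1 it was 25. Within experiments 1, 2 and 3, 41, 42 and 42 of the genes were lower at 16 h than at 1 h, with median differences of -1.14, -1.37 and -0.87.

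**Figure D3:**
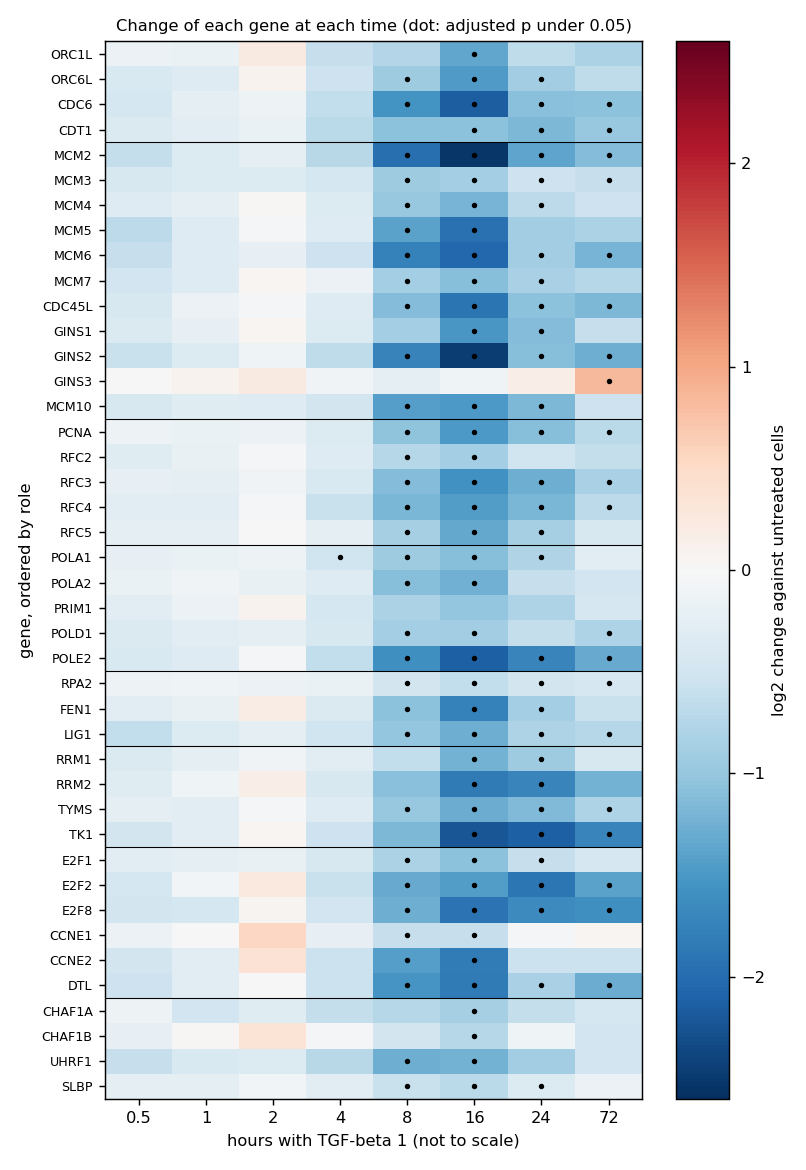
Log2 change of each of the 42 genes (rows, ordered by role, with lines between roles) at each time (columns) against untreated cells, in blue where lower and red where higher, with a dot where the adjusted p was under 0.05. Dots fill the columns for 8 h (32 genes) and 16 h (40 genes), and GINS3 at 72 h is the one called higher.

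All 4 licensing genes were lower at 16 h. In the values that follow, the arrays are given in the order of experiments 1, 2 and 3. CDC6, which loads the MCM ring, read 10.75, 9.48 and 9.97 in untreated cells, 8.02, 7.78 and 7.97 at 16 h, and 9.24, 8.92 and 8.85 at 72 h. The 16 h arrays lay well below every untreated array and the 72 h arrays between them. The change was -2.14 ± 0.29 (SE, adjusted p = 3.9e-06) at 16 h and -1.06 ± 0.29 (adjusted p = 0.0051) at 72 h. ORC1L, the largest subunit of the origin recognition complex, read 9.75, 7.34 and 8.25 untreated and 7.27, 6.92 and 7.10 at 16 h. Its 16 h arrays did not overlap with the untreated ones but came close to no signal (-1.35 ± 0.39, adjusted p = 0.0096). ORC6L, the smallest subunit of the same complex, was lower too (-1.48 ± 0.29, adjusted p = 0.00037). It is measured by a probe set that the array's maker marks as possibly binding other transcripts. CDT1, the partner of CDC6 in loading, read 10.23, 8.21 and 8.77 untreated and 8.03, 8.54 and 7.45 at 16 h, so that the groups overlapped (-1.06 ± 0.39, adjusted p = 0.037). It was one of the 2 genes with their lowest mean at 24 h. A brighter probe set of CDT1, not used because it ends in _x_at, gave -1.72 at 16 h and -1.78 at 72 h.

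Of the 11 helicase genes, 10 were lower at 16 h, with a median change of -1.51. MCM2, a subunit of the ring, read 12.19, 10.13 and 10.78 in untreated cells, 8.76, 8.42 and 8.32 at 16 h, and 9.94, 9.91 and 9.88 at 72 h. The 16 h arrays agreed closely and lay far below the untreated ones. Its fall of -2.53 ± 0.40 (5.78-fold, adjusted p = 3.4e-05) was the largest of the 42 at 16 h. GINS2, a subunit of the GINS complex, read 11.56, 9.97 and 10.64 untreated, 8.16, 8.49 and 8.11 at 16 h, and 9.66, 9.42 and 9.30 at 72 h. Its groups did not overlap at either time (-2.47 ± 0.37 at 16 h, adjusted p = 1.8e-05). A second probe set of GINS2 gave 0.01 at 16 h. MCM6, another subunit of the ring, read 13.02, 11.76 and 12.19 untreated and 10.47, 10.24 and 10.17 at 16 h, again with no overlap (-2.03 ± 0.26, adjusted p = 2.4e-06).

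The other ring subunits fell by different amounts. At 16 h, MCM5 changed by -1.93 ± 0.43 (adjusted p = 0.0011), MCM4 by -1.22 ± 0.25 (adjusted p = 0.00065), MCM7 by -1.11 ± 0.31 (adjusted p = 0.0086) and MCM3 by -0.89 ± 0.20 (adjusted p = 0.0012). The 6 subunits act in equal number in the ring, but their probe sets differ and the sizes of these falls were not tested against each other. CDC45L, which joins the ring to GINS, read 10.58, 9.27 and 9.56 untreated and 8.13, 7.98 and 7.64 at 16 h, all below (-1.89 ± 0.33, adjusted p = 0.00011). GINS1, a further subunit of the complex, was lower by -1.51 ± 0.34 (adjusted p = 0.0014), and MCM10, which helps to start the helicase, by -1.50 ± 0.29 (adjusted p = 0.00034).

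GINS3 was the exception. This subunit of the same complex as GINS1 and GINS2 read 9.32, 8.47 and 8.78 in untreated cells, 8.66, 8.90 and 8.67 at 16 h, and 9.83, 9.59 and 9.65 at 72 h. The 16 h arrays lay within the untreated range and the 72 h arrays above it. The change at 16 h was -0.11 ± 0.17 (adjusted p = 0.65), and at 72 h GINS3 rose by 0.83 ± 0.17 (adjusted p = 0.00033), the only gene of the 42 called higher. Across all genes tested 18.3% were called higher at 72 h. The rise held in each of the 41 alternative fits, between 0.64 and 1.06. A second probe set of GINS3 gave 0.65 at 72 h.

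**Figure D4:**
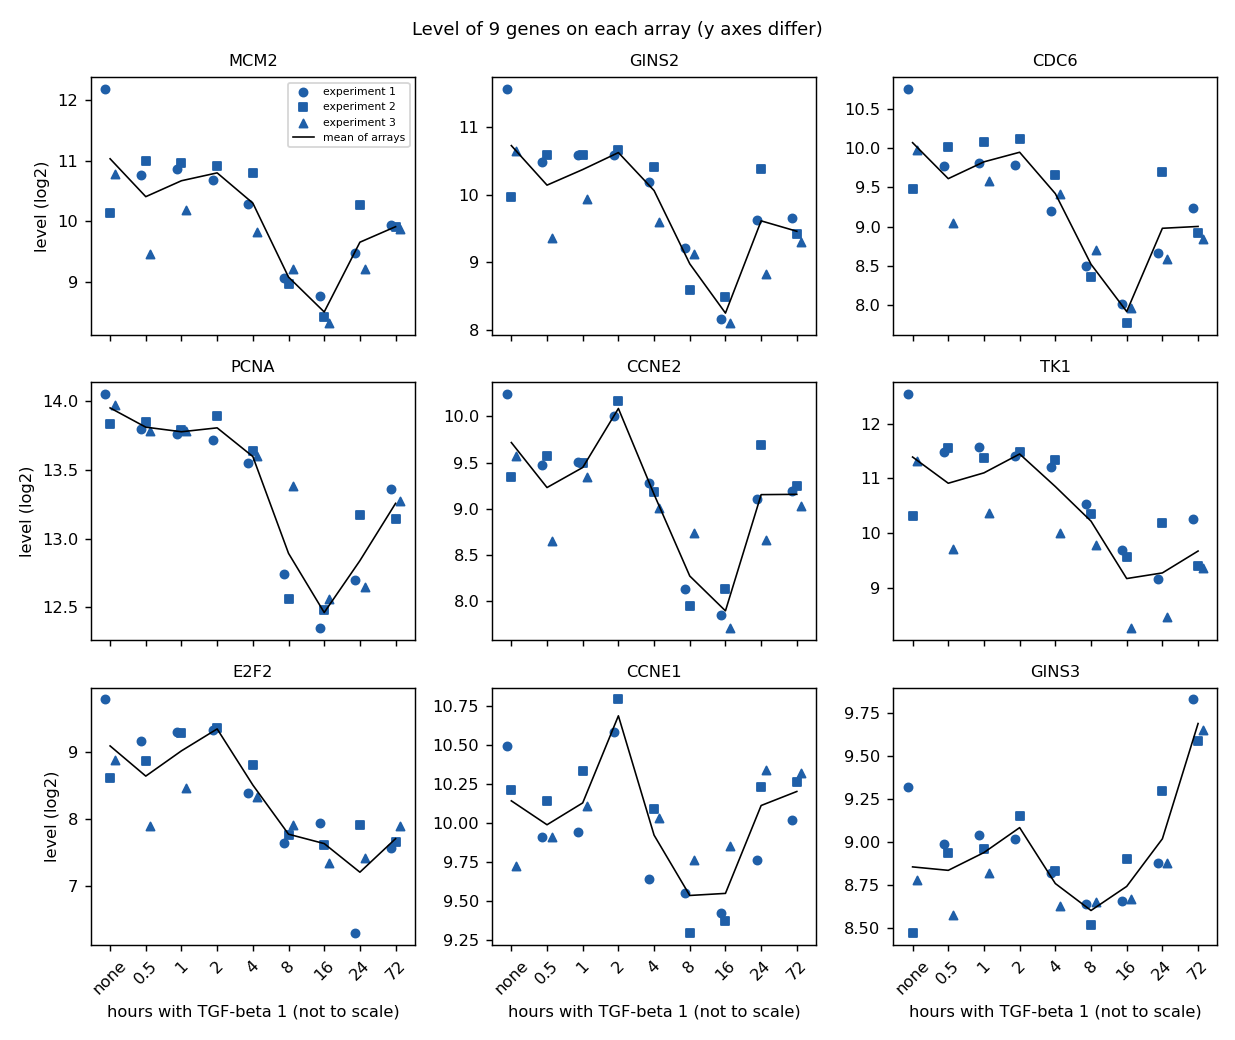
Log2 level of 9 genes on each array against hours with TGF-beta 1 (none: untreated, axis not to scale), with the experiment as the marker and the mean of the arrays as the line, each panel on its own vertical scale. MCM2, GINS2, CDC6, PCNA and CCNE2 were lowest at 16 h, E2F2 at 24 h, and GINS3 was highest at 72 h.

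All 5 genes of the clamp and its loader were lower at 8 h and at 16 h. PCNA, the sliding clamp, read 14.05, 13.83 and 13.97 in untreated cells, 12.74, 12.56 and 13.38 at 8 h, 12.35, 12.48 and 12.56 at 16 h, and 13.36, 13.14 and 13.27 at 72 h. Every array from 8 h on lay below every untreated array. The change was -1.49 ± 0.14 at 16 h (adjusted p = 4.7e-08), the smallest adjusted p of the 42 at that time, and -0.69 ± 0.14 at 72 h (adjusted p = 0.00051). RFC3, a subunit of the clamp loader, read 11.42, 10.55 and 10.52 untreated, 9.33, 9.20 and 9.26 at 16 h, and 10.07, 9.88 and 10.00 at 72 h, with no overlap at either time. It changed by -1.57 ± 0.17 (adjusted p = 2.8e-07) and -0.85 ± 0.17 (adjusted p = 0.00043). The other loader subunits changed at 16 h by -1.46 ± 0.22 (RFC4, adjusted p = 1.6e-05), -1.33 ± 0.26 (RFC5, adjusted p = 0.00032) and -0.89 ± 0.25 (RFC2, adjusted p = 0.007).

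Of the 5 polymerase and primase genes, 4 were lower at 16 h. POLE2, the second subunit of the leading-strand polymerase epsilon, read 10.72, 9.45 and 9.82 in untreated cells, 7.85, 7.75 and 8.01 at 16 h, and 8.93, 8.55 and 8.60 at 72 h. Both later groups lay below every untreated array (-2.12 ± 0.30, adjusted p = 6.8e-06, and -1.30 ± 0.30, adjusted p = 0.0013). POLA1 read 10.44, 9.87 and 10.08 untreated, 8.71, 9.12 and 9.24 at 16 h, and 9.82, 9.84 and 9.84 at 72 h. The 72 h arrays sat just under the lowest untreated one, and the difference there did not pass the test (-0.29 ± 0.16, adjusted p = 0.17). POLA2, its partner subunit, changed by -1.25 ± 0.29 at 16 h (adjusted p = 0.0018), and POLD1, the catalytic subunit of the lagging-strand polymerase delta, by -0.91 ± 0.29 (adjusted p = 0.018). PRIM1, the catalytic primase subunit, read 11.52, 9.35 and 9.97 untreated and 9.32, 9.62 and 8.92 at 16 h. Its groups overlapped, and with GINS3 it was one of the 2 genes not called at 16 h (-1.0 ± 0.40, adjusted p = 0.057).

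The 3 genes of strand maturation and single-strand binding were lower at 8, 16 and 24 h. FEN1, the nuclease that trims Okazaki fragments, read 12.19, 10.62 and 11.44 in untreated cells, 9.76, 9.59 and 9.65 at 16 h, and 11.05, 10.89 and 10.58 at 72 h. It was below all untreated arrays at 16 h, and 2 of the 3 arrays were within their range at 72 h. The change was -1.75 ± 0.33 at 16 h (adjusted p = 0.00027) and FEN1 regained 1.17 ± 0.33 from 16 h to 72 h (adjusted p = 0.02). LIG1, the ligase that seals the fragments, changed by -1.27 ± 0.24 at 16 h (adjusted p = 0.00019). RPA2, a subunit of the single-strand binding complex, had one of the smaller falls (-0.63 ± 0.13, adjusted p = 0.00056).

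The 4 genes of nucleotide supply were lower at 16 h and at 24 h, and their median change moved little between those times, from -1.57 to -1.43. TK1, thymidine kinase, read 12.54, 10.31 and 11.32 in untreated cells, 9.68, 9.56 and 8.26 at 16 h, 9.16, 10.18 and 8.47 at 24 h, and 10.26, 9.39 and 9.36 at 72 h. All of these treated arrays lay below the lowest untreated one, but the spread was wide in every group. The changes were -2.23, -2.12 and -1.73 (each ± 0.56, adjusted p = 0.0036, 0.0049 and 0.018). RRM2, the S-phase subunit of ribonucleotide reductase, read 14.05, 12.19 and 13.19 untreated, 11.61, 11.57 and 10.74 at 16 h, and 11.19, 12.24 and 10.87 at 24 h. The 24 h array of experiment 2 reached the untreated range. RRM2 was called at 16 h (-1.84 ± 0.51, adjusted p = 0.0075) and at 24 h (-1.71 ± 0.51, adjusted p = 0.012) but not at 72 h (-1.24 ± 0.51, adjusted p = 0.061). RRM1, its large subunit, changed by -1.23 ± 0.24 at 16 h (adjusted p = 0.00031), and TYMS, thymidylate synthase, by -1.29 ± 0.29 (adjusted p = 0.0012).

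All 6 genes of G1/S control were lower at 8 h and at 16 h, and they then parted. CCNE2, a cyclin E, read 10.24, 9.34 and 9.57 in untreated cells, 7.85, 8.13 and 7.71 at 16 h, 9.11, 9.69 and 8.66 at 24 h, and 9.19, 9.25 and 9.03 at 72 h. The 16 h arrays were far below the untreated ones, and 1 of those at 24 h reached their range. It changed by -1.82 ± 0.26 at 16 h (adjusted p = 7.9e-06) and by -0.57 ± 0.26 at 24 h (adjusted p = 0.094). From 16 h to 24 h, a step added after the values had been seen, it gained 1.25 (adjusted p = 0.039), the one gene of the 42 called in that step, where 0.217% of all genes were; that call was lost in 19 of the 41 alternative fits. CCNE1, the other cyclin E, read 10.49, 10.21 and 9.72 untreated, 9.42, 9.37 and 9.85 at 16 h, and 10.02, 10.26 and 10.32 at 72 h. Its 16 h arrays overlapped with the untreated ones, and the 72 h arrays lay within their range. The change was -0.60 ± 0.19 at 16 h (adjusted p = 0.018) and 0.06 ± 0.19 at 72 h (adjusted p = 0.84).

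By the probe sets used, E2F2 and E2F8 were still lower at 72 h, and E2F1 was not called there. E2F2, an activating E2F, read 9.78, 8.61 and 8.87 in untreated cells, 7.94, 7.61 and 7.34 at 16 h, 6.29, 7.91 and 7.41 at 24 h, and 7.57, 7.65 and 7.89 at 72 h. No array from these times reached the untreated range, and 1 array at 24 h lay below the level of no signal. The change was -1.46 ± 0.36 at 16 h (adjusted p = 0.0027), -1.89 ± 0.36 at 24 h (adjusted p = 0.00022) and -1.38 ± 0.36 at 72 h (adjusted p = 0.0035). E2F8, a repressing E2F that is itself switched on in S phase, read 10.23, 8.80 and 9.13 untreated, 7.22, 7.48 and 7.71 at 16 h, and 8.34, 7.55 and 7.49 at 72 h. Its groups did not overlap (-1.92 ± 0.33, adjusted p = 8.1e-05, and -1.59 ± 0.33, adjusted p = 5e-04). E2F1, the best known activating E2F, read 9.28, 8.97 and 8.80 untreated and 7.73, 8.10 and 8.00 at 16 h, with no overlap (-1.07 ± 0.19, adjusted p = 0.00014). At 72 h its value did not pass the test (-0.45 ± 0.19, adjusted p = 0.073). The contrast between E2F1 and E2F2 at 72 h depends on the probe set. A second one of E2F1 gave -2.28 at 16 h, where it read 6.04, below no signal, and -1.35 at 72 h. The other probe sets of E2F2, dim at means of 7.19 and 7.38, gave -0.26 and -0.41 at 16 h and -0.28 and -0.39 at 72 h. These were not tested on their own. DTL, the part of a ubiquitin ligase that has CDT1 destroyed in S phase, changed by -1.83 ± 0.33 at 16 h (adjusted p = 0.00012) and -1.28 ± 0.33 at 72 h (adjusted p = 0.0031).

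The 4 genes of chromatin copying had the smallest falls of the roles, with a median change of -0.80 at 16 h, when all were called, and none was called at 72 h. UHRF1, which brings DNA methylation to new strands, read 12.32, 11.05 and 11.92 in untreated cells and 10.48, 10.54 and 10.57 at 16 h, all below (-1.23 ± 0.36, adjusted p = 0.01). SLBP, which binds the stem-loop of histone mRNAs, read 11.93, 11.26 and 11.32 untreated, 10.79, 10.70 and 10.88 at 16 h, and 11.15, 11.42 and 11.45 at 72 h. It lay below all untreated arrays at 16 h, and 2 of the 3 arrays were within their range at 72 h (-0.71 ± 0.14, adjusted p = 0.00036, and -0.16 ± 0.14, adjusted p = 0.39). CHAF1A and CHAF1B, subunits of the histone chaperone CAF-1, changed by -0.86 ± 0.32 (adjusted p = 0.042) and -0.74 ± 0.27 (adjusted p = 0.04) at 16 h.

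The group mean was lowest at 16 h for 36 of the 42 genes. It was lowest at 8 h for CCNE1, GINS3, MCM3 and UHRF1, and at 24 h for CDT1 and E2F2. At 24 h, 30 genes were lower than in untreated cells, against 20% of all genes, and at 72 h 19 were lower, against 20%, and 1 was higher. In 14 genes at 24 h and 18 at 72 h every treated array lay below every untreated one, as for 22.9% and 25.5% of all genes. Without untreated array 1 the counts called were 12 at 24 h and 8 at 72 h, without untreated array 2 they were 37 and 34, and without array 3 they were 26 and 20. The count at 24 h was also 19 without the 24 h array of experiment 1 and 16 without that of experiment 3, and the count at 72 h was 13 without the 72 h array of experiment 3. Without 3 arrays whose deposited column names carry an r, 1 at 8 h and 2 at 24 h, it was 4 at 24 h. In experiment 2 at 24 h only 15 of the 42 genes lay below that experiment's untreated array, with a median difference of 0.14, while in experiments 1 and 3 it was 42 and 40, at -1.72 and -1.14. With the untreated arrays of experiments 2 and 3 exchanged, experiment 2 had 35 of 42 below, at -0.38, and experiment 3 had 37, at -0.65, so that the median of experiment 2 changes sign with the numbering. The 24 h array of experiment 2 was the highest of its group for 39 of the 42 genes. Against cells treated for 1 h, 16 genes (38.1%) were lower at 24 h, against 17.9% of all genes. At 72 h 9 (21.4%) were lower, against 18.8%, so that this count lies near the share of all genes. The count at 24 h was 7 without the 1 h array of experiment 1 or that of experiment 2, and 8 without the 24 h array of experiment 1 or that of experiment 3. The count of calls at 72 h, 10 with GINS3, was 6 without the 1 h array of experiment 1 or that of experiment 2.

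From 16 h to 72 h all 42 genes had values above 0, with a median change of 0.70, and 17 rose, against 7.18% of all genes. This step was also added after the values had been seen. The largest gains that passed were those of MCM2 (1.41), CCNE2 (1.26) and GINS2 (1.20). Within experiments 1, 2 and 3, 3, 2 and 2 of the 42 genes went the other way. Of the fall at 16 h, a median of 51.2% was left at 72 h over the 41 genes other than GINS3. That share uses the mean of the untreated arrays, and the experiments differed. At 72 h, 41, 25 and 39 of the 42 genes lay below the untreated array of experiments 1, 2 and 3. The median differences were -1.23, -0.10 and -0.72. With untreated arrays 2 and 3 exchanged, it was 39 in experiment 2, at -0.65, and 29 in experiment 3, at -0.25. E2F2, at 0.07 ± 0.36 (adjusted p = 0.93), and CDT1, at 0.08 ± 0.39 (adjusted p = 0.93), had the smallest changes between 16 h and 72 h. The count was 7 without the 16 h array of experiment 2, 11 without that of experiment 3, and 8, 8 and 10 without the 72 h arrays of experiments 1, 2 and 3. From 24 h to 72 h 1 gene was called, GINS3 (0.67), against 9.12% of all genes called in either direction. That call was lost without the 72 h array of experiment 1 and without the 24 h array of experiment 1 or 3. The count was 4 without the 24 h array of experiment 2, 3 without untreated array 1, and 2 without the 8 h array of experiment 2 or 3.

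Other genes of DNA replication, are listed for comparison. Of 42 listed, 41 had a probe set and 39 were tested: 24 were lower and 2 higher at 24 h, and 12 were lower and 2 higher at 72 h, where 20% of all genes were lower at either time. At 16 h it was 28 and 3, where 18.5% of all genes were lower, with a median change of -0.84 against -1.34 for the 42 genes. CDCA7, a partner of a chromatin remodeller, changed by -1.41 ± 0.22 at 24 h (adjusted p = 2.9e-05), and DBF4, the activator of the CDC7 kinase that fires origins, by -1.37 ± 0.28 (adjusted p = 0.00051). POLD2, a subunit of polymerase delta, was lower at both 24 h and 72 h, by -1.24 ± 0.14 and -1.29 ± 0.14 (adjusted p = 3.3e-07 and 1.6e-07). CTPS1, which makes CTP, went the other way, at 1.99 ± 0.20 and 1.40 ± 0.20 (adjusted p = 6.3e-08 and 6.7e-06), as did POLD4, a small subunit of polymerase delta, at 24 h (0.89 ± 0.18, adjusted p = 0.00047).

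For genes of G2 and mitosis the lowest mean came at 24 h. Of 39 tested, 4 were lower at 16 h, 34 at 24 h and 2 at 72 h, with median changes of -0.76, -1.90 and -0.77. Of all genes 18.5%, 20% and 20% were lower at these times. Over the time course 8 of the 39 passed the F test, against 36 of the 42 replication and G1/S genes and 47.7% of all genes tested. Over these genes the mean level was 11.04 ± 1.02 (SD, n = 3) in untreated cells, 10.21 ± 0.62 (n = 3) at 16 h, 9.18 ± 0.32 (n = 3) at 24 h and 10.28 ± 0.66 (n = 3) at 72 h. In experiments 1, 2 and 3 the means were 10.71, 10.40 and 9.51 at 16 h, and 8.85, 9.48 and 9.21 at 24 h. In experiment 3 the mean was already 9.46 at 0.5 h. The G2/M counts were not recomputed without single arrays or without those marked r in the column names. From 16 h to 24 h the median change was -1.01 for the G2/M genes and 0.37 for the 42 genes, but no G2/M gene was called in that step, and the difference in timing was not tested. The untreated arrays of experiments 1, 2 and 3 read 11.96, 9.95 and 11.22 for the G2/M genes, in the same order as for the replication genes.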

How the data were processed

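The 26 arrays are Affymetrix HG-U133 Plus 2.0, with 54675 probe sets. Per the file headers, the authors took trimmed means (about 20% trimmed) of perfect-match minus mismatch probes, scaled them, quantile-normalized the arrays and deposited log10 values after adding an offset that amounts to 100. These were turned into log2 values here. The actin ratio and the detection counts are the authors' own, per the file headers. A gene was represented by the probe set with the highest mean, avoiding those ending in _x_at where another existed. Of 19539 genes, 14771 lay above the array median on at least 2 arrays and were tested. One linear model with a mean per group was fitted over all of them (limma 3.58.1 in R 4.3.3, eBayes with an intensity trend), two-sided, with Benjamini-Hochberg adjustment over all tested genes and a threshold of 0.05. The number of arrays limits the precision. The procedure was tested on simulated data in which every gene varied independently of the others. Shifts shared by many genes of an array, as on the untreated arrays, were not simulated.

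The replicate number is the experiment number of the labels, which pairs the arrays. The median correlation of deviations was 0.153 between arrays of the same number and -0.0619 between others. Untreated array 2 had a median of -0.198 with treated arrays of experiment 2 and 0.314 with those of experiment 3. Untreated array 3 had 0.031 with those of experiment 2 and -0.022 with those of its own. On the ground of array 2, a block with untreated numbers 2 and 3 exchanged was also fitted. By the numbered column names, each of these arrays comes directly before the treated arrays of the other's experiment. The labels do not say how separate the cultures of an experiment were. The 42 genes and the other lists were chosen with earlier results of these data known.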

Additional observations from a re-analysis of the deposited data

How the results depend on the processing

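The counts of the 42 genes called were recomputed with other settings. With the experiment number as a replicate block, calls moved by over 1.5 times only from 16 h to 24 h, to 2; with untreated 2 and 3 exchanged in the block, the counts were 3 at 4 h, 4 from 24 h to 72 h and 4 from 16 h to 24 h. In the block fit the counts against untreated cells were 38 and 41 for 8 h and 16 h, and 32 and 24 for 24 h and 72 h. Leaving out single arrays gave 33 to 39 genes in the F test and, against untreated cells, 0 to 6 at 4 h, 16 to 40 and 30 to 41 for 8 h and 16 h, and 12 to 37 and 8 to 34 for 24 h and 72 h. Against 1 h it gave 27 to 38 at 16 h, 7 to 19 at 24 h and 6 to 15 at 72 h. It gave 7 to 23 from 16 h to 72 h, 0 to 4 from 24 h to 72 h and 0 to 3 from 16 h to 24 h. At 0.5, 1 and 2 h it gave 0 to 0. Without experiment 1 the counts were 17 in the F test, 0, 8 and 25 for 4, 8 and 16 h against untreated cells, 6 for both 24 h and 72 h, 4 and 5 for 24 h and 72 h against 1 h, 3 from 16 h to 72 h, and 0 from 24 h to 72 h and from 16 h to 24 h. Without experiment 2 they were 0 at 4 h, 18, 8 and 1 for 16, 24 and 72 h against 1 h, 3 from 16 h to 72 h, and 0 for both other steps. Without experiment 3 they were 0 from 24 h to 72 h, 11 from 16 h to 72 h and 3 from 16 h to 24 h. Without the 3 arrays marked r in the column names, a setting chosen after seeing the data that leaves 1 array at 24 h, assumed to vary like the other groups, they were 2 at 4 h, 4 at 24 h, 2 for 24 h against 1 h, 0 from 24 h to 72 h and 4 from 16 h to 24 h. Fits of only the groups compared called 19, 11 and 13 for 8, 24 and 72 h against untreated cells, 19 for 72 h against 1 h, 4 from 24 h to 72 h, 27 from 16 h to 72 h and 0 from 16 h to 24 h. At an adjusted p under 0.01 the counts were 0 and 21 for 4 h and 8 h, 14 and 11 for 24 h and 72 h, 7 and 5 for 24 h and 72 h against 1 h, 6 from 16 h to 72 h, and 0 for both other steps. Without a filter, and without an intensity trend, the count at 4 h was 0. Without the trend it was 0 from 16 h to 24 h, and with the mean of all probe sets 2. The sign of POLA1, called at 4 h, was not followed through these fits. From 8 h on, no single gene called reversed its sign in any of these fits. Of the 40 genes called at 16 h, 24 kept the call in each of them, of the 32 at 8 h, 7, of the 30 at 24 h, 4 (PCNA, POLE2, RFC3 and RFC4), and of the 20 at 72 h, 6 (E2F2, E2F8, GINS3, PCNA, POLE2 and RFC3). A fall toward the level of no signal, as for ORC1L, is understated. The causes of these changes were not tested.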

Other observations

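Of 28 listed genes that govern G1 outside the 42, 26 were tested. At 24 h 4 were higher and 8 lower, where 15.2% of all genes were higher and 20% lower. At 72 h 7 were higher and 5 lower, where 18.3% and 20% were. The counts of 4 and 5 lie near the share of all genes. CDKN1A, which encodes the CDK inhibitor p21, was higher at 24 h and at 72 h (1.16 ± 0.22 SE, adjusted p = 0.00027, and 1.17 ± 0.22, adjusted p = 0.00023). CDKN1C, the inhibitor p57, was higher by 0.95 ± 0.22 and 0.97 ± 0.22 (adjusted p = 0.0014 and 0.001). CCND1, cyclin D1, and CDK6, its kinase partner, were higher at 72 h by 1.02 ± 0.14 (adjusted p = 5.5e-06) and 1.33 ± 0.18 (adjusted p = 4.7e-06). CDKN1B, the inhibitor p27, and CCND3, cyclin D3, were lower at 72 h, by -1.17 ± 0.13 (adjusted p = 3.6e-07) and -1.52 ± 0.18 (adjusted p = 4.9e-07). CDKN2C, the inhibitor p18, was lower at 24 h (-1.42 ± 0.37, adjusted p = 0.0046). CDKN2B, the inhibitor p15 often named as a TGF-beta target, did not pass the filter on dim genes and was not tested.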
